A study of Mus musculus with 2 samples.

Results

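PPARγ regions assigned to brown fat and PPARγ regions assigned to white fat sometimes lie next to each other in the genome, and these side-by-side regions are described here. The data are 2 deposited lists of regions, 1 named as specific to brown adipose tissue (BAT) and 1 named as specific to epididymal white adipose tissue (eWAT). Regions were chosen by their deposited positions alone: a BAT region was taken where the midpoint of any eWAT region lay within 12.5 kb of its own midpoint on the same chromosome, and an eWAT region where a BAT region did. That gave 196 of the 3557 BAT regions and 188 of the 4711 eWAT regions, or 384 of 8268 in all. They were 5.51% of the BAT list (exact Clopper-Pearson 95% interval 4.78 to 6.31%) and 3.99% of the eWAT list (interval 3.45 to 4.59%). Each region is 200 bp wide.

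Both groups were male mice of strain 129SV, aged 8 to 10 weeks, on a normal chow diet and a cycle of 12 h light and 12 h dark, with no genetic change or drug named in the labels. BAT or eWAT was taken at zeitgeber time 10 h and cross-linked with 1% formaldehyde. PPARγ was then precipitated with its bound DNA and the DNA was sequenced (ChIP-seq). Chromatin of 4 mice per tissue was precipitated and the DNA pooled, so each tissue has 1 library, nothing below has a replicate check and no difference between the tissues was tested. Whole fat depots were used, which hold blood vessel, immune and stromal cells beside fat cells. The labelled tissues could not be checked against marker genes, because no gene positions in the build of the lists were used.

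PPARγ is a nuclear receptor that is required for the formation of both brown and white fat cells, and it binds DNA together with a retinoid X receptor. Brown fat burns fatty acids to release heat, and epididymal fat stores them around the testis. By its title the series belongs to work on how EBF2, a transcription factor enriched in brown fat cells, sets and keeps their identity. Where a brown and a white region lie side by side, the lists record a region of each tissue at 1 locus, with different midpoints. The lists alone cannot tell whether the closest of these are separate places or a shared one. The lists give no value of the other tissue at any region, so how much PPARγ the other depot had at these exact places was not measured here.

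Most side-by-side loci were simple pairs. When these regions were joined as long as consecutive midpoints lay within 12.5 kb, they formed 175 loci, and 148 of the loci (84.6%) held 1 BAT and 1 eWAT region. The other 27 loci held 3 regions (22 loci), 4 regions (3 loci) or 5 regions (2 loci). BAT regions outnumbered eWAT regions at 16 of the 27 and eWAT regions outnumbered BAT regions at 9. From the first to the last base a locus spanned a median of 7.35 kb, from 0.435 to 19.8 kb. Among the simple pairs the BAT region had the lower coordinate in 79 and the eWAT region in 69. In addition, 13 loci had 1 further region close by (8 BAT and 5 eWAT in all) that lay within 12.5 kb of a side-by-side region of its own list but not of the other list.

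The distance between the 2 kinds of region was spread over the whole range that the choice allowed. The median distance to the nearest region of the other list was 6.34 kb for the BAT regions and 6.10 kb for the eWAT regions. Of the 196 BAT regions, 13 (6.63%) had an eWAT region within 1 kb, 34 (17.3%) within 2.5 kb and 86 (43.9%) within 5 kb. A further 75 (38.3%) lay 5 to 10 kb away and 35 (17.9%) lay 10 to 12.5 kb away. The limit fell within a continuous run of distances. The last BAT region inside it, on chromosome 13 (104826625 to 104826824, score 3.64), was 12.33 kb from its eWAT neighbour, and the first outside, on chromosome 12 (102175723 to 102175922, score 5.15), was 12.71 kb away. For eWAT the last inside, on chromosome 7 (72539350 to 72539549, score 2.79), was at 12.45 kb and the first outside, on chromosome 13 (98903000 to 98903199, score 4.18), was at 12.52 kb. Positions are given from base 1, so each start is 1 higher than the deposited value, and they are read as mm9. The submitters' notes name both mm8 and mm9, and the lists do not say which one they use.

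**Figure D1:**
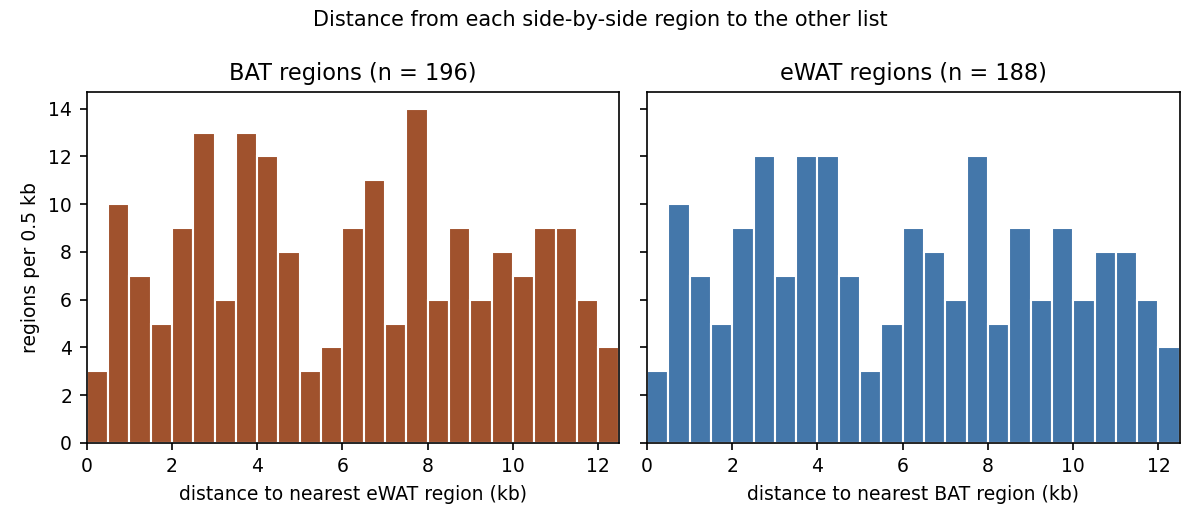
Histograms of the distance (kb, x axis) from each side-by-side region to the nearest region of the other list, with the number of regions per 0.5 kb on the y axis, for 196 BAT and 188 eWAT regions. Regions are found at all distances up to the 12.5 kb limit, and few (3 in each list) lie within 0.5 kb.

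In the closest pairs the brown and white regions were nearly on top of each other. On chromosome 7 a BAT region (72526899 to 72527098, score 4.33) and an eWAT region (72526700 to 72526899, score 2.44) had midpoints 199 bp apart and shared 1 base. On chromosome 13 a BAT region (20324037 to 20324236, score 2.75) lay 235 bp from an eWAT region (20323802 to 20324001, score 7.66). The pair on chromosome 4 at 135816684 to 135816883 (BAT, score 3.23) and 135816243 to 135816442 (eWAT, score 2.44) was 441 bp apart. The scores are the authors' own values for each region, in a unit that is not stated, so a BAT score and an eWAT score cannot be set against each other as amounts.

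The next 5 pairs were 512 to 712 bp apart and lay on chromosomes 8, 15, 18, 4 and 1. The pair on chromosome 8 had its BAT region at 130881446 to 130881645 (score 4.67) and its eWAT region at 130881958 to 130882157 (score 2.79). On chromosome 15 they were at 3220553 to 3220752 (BAT, score 2.61) and 3219996 to 3220195 (eWAT, score 4.18). On chromosome 18 they were at 68217975 to 68218174 (BAT, score 2.68) and 68218626 to 68218825 (eWAT, score 4.53). The scores of these pairs were mixed. To compare them, each score was turned into a percentile, the share of the region's own list with a lower score, with equal scores counted as 0.5. The BAT regions of the 8 pairs lay at percentiles 23.6 to 72.5 and the eWAT regions at 34.2 to 96.1. Through ties, the median score of the eWAT list, 2.79, falls at percentile 48.1, so eWAT regions at that score count as under 50. The eWAT region of the pair on chromosome 8 is 1 of these. None of the 8 pairs had both regions at percentile 50 or above, but 2 of the 13 pairs within 1 kb did. One was on chromosome 11 at 0.73 kb (percentiles 62.0 for BAT and 78.8 for eWAT), the other on chromosome 14 at 0.885 kb (87.4 and 66.8).

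Mixed pairs were fewer per kb at the shortest distances than at long ones, whereas pairs from a single list were most frequent at the shortest. All pairs of regions on a chromosome were counted by distance, which takes in pairs beyond the limit that chose the side-by-side regions. Mixed pairs, of 1 BAT and 1 eWAT region, numbered 13.0 per kb of distance up to 1 kb, 14 per kb at 1 to 2.5 kb and 21.6 per kb at 2.5 to 5 kb. Between 5 and 25 kb they numbered 14 to 19.6 per kb, and between 25 and 200 kb 20.4 to 21.8 per kb. The 2 classes up to 2.5 kb rest on 34 mixed pairs in all. Pairs of 2 BAT regions fell from 79.0 per kb up to 1 kb to 28.0 at 10 to 12.5 kb and 12.5 at 100 to 200 kb. Pairs of 2 eWAT regions fell from 88.0 to 32.8 and 15.6 per kb over the same classes. The share of mixed pairs therefore rose with distance, from 7.22% of 180 pairs up to 1 kb, through 20.4% of 191 pairs at 10 to 12.5 kb, to 42.4% of 4887 pairs at 100 to 200 kb. Pairs share regions, so these counts have no interval. Both lists hold only regions named as specific to 1 tissue, by a rule that is not given. A place recorded in both tissues may be missing from both lists. How far the low counts of mixed pairs at short distances come from that rule was not tested.

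**Figure D2:**
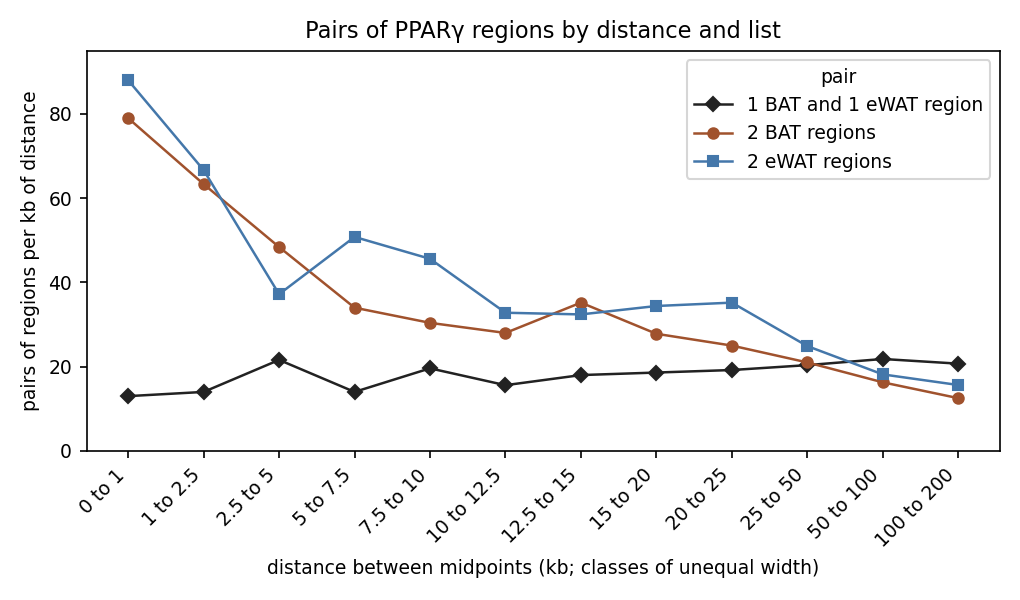
Pairs of regions per kb of distance (y axis) in classes of distance between midpoints (kb, x axis), for mixed pairs (black diamonds), pairs of BAT regions (brown circles) and pairs of eWAT regions (blue squares). Mixed pairs are lowest in the shortest class (13.0 per kb) and lie at 20.4 to 21.8 per kb beyond 25 kb, and pairs from a single list come down from 79.0 and 88.0 per kb.

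Regions more than 12.5 kb from a side-by-side region were not themselves used in choosing that region, but their counts are not independent of the choice. Some of these regions belong to the locus of the side-by-side region, because loci span up to 19.8 kb, and the counts below include them. A region of the other list lay 12.5 to 100 kb away from 114 of the 196 side-by-side BAT regions (58.2%), against 1132 of the 3361 other BAT regions (33.7%). For eWAT the figures were 94 of 188 (50%) against 1147 of 4523 (25.4%). Regions of their own list at this distance were found about as often as for the rest of the list for BAT, at 52.6% against 50.6%, and more often for eWAT, at 57.4% against 48.1%. In mean numbers, a side-by-side BAT region had 0.980 eWAT regions and 0.923 BAT regions at this distance, and another BAT region had 0.489 and 0.952. A side-by-side eWAT region had 0.888 BAT and 0.984 eWAT regions there, and another eWAT region had 0.369 and 0.825. The regions of a locus share their surroundings and are not independent, so these shares were not tested. By the choice, each side-by-side region lies within 12.5 kb of a region of the other list and shares much of its surroundings. The mean of 0.980 eWAT regions around side-by-side BAT regions was near the 0.984 around side-by-side eWAT regions. For BAT regions the means were 0.888 around side-by-side eWAT and 0.923 around side-by-side BAT regions. How far the higher shares follow from the choice was not tested.

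Some side-by-side loci lay close to each other. In 6 cases a second locus followed within 50 kb, so that 12 of the 175 loci had such a neighbour. On chromosome 11 a locus of 1 eWAT region followed by 2 BAT regions (117046440 to 117057173) was followed after 25.5 kb by a locus of 2 BAT regions and 1 eWAT region (117082669 to 117093341). Also on chromosome 11, a pair (72957956 to 72964468) lay 17.2 kb before a locus of 2 BAT regions and 1 eWAT region (72981665 to 72990014). On chromosome 10 a locus of 1 eWAT and 2 BAT regions (67537815 to 67544822) lay 22.5 kb before a pair (67567317 to 67568230). The remaining cases were on chromosomes 4, 7 and 11.

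Some of the larger loci had brown and white regions interleaved. Of the 27 loci with 3 or more regions, 20 changed from one list to the other once along the chromosome and 7 (25.9%) changed more than once. At the 22 loci of 3 regions, 2 were of 1 list and 1 of the other. Only the order with the single region in the middle is then interleaved. Most possible orders thus have separate sides, and the counts were not compared with random orders. The 8 loci with the most regions are shown on the map, with ties in size broken by the higher sum of score percentiles.

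**Figure D3:**
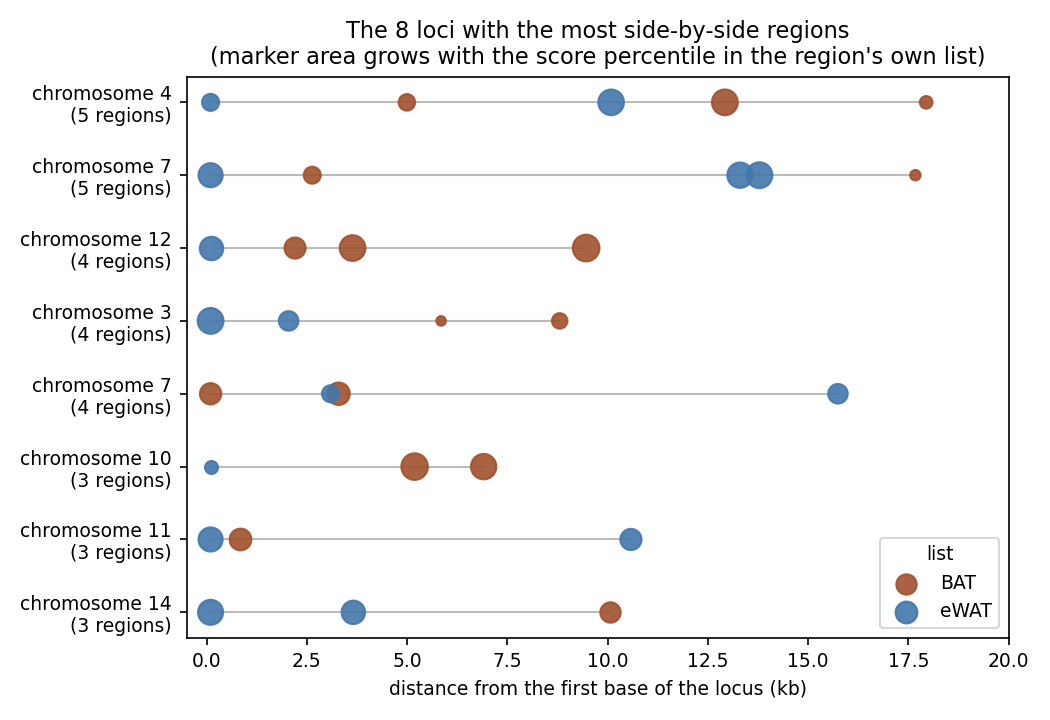
Maps of the 8 loci with the most side-by-side regions, with the distance from the first base of the locus (kb) on the x axis and 1 locus per line. Brown markers are BAT regions, blue markers are eWAT regions, and the marker's area grows with the region's score percentile in its own list. The lists alternate at the 2 loci of 5 regions, at 1 locus of 4 and at the locus on chromosome 11, and take separate sides at the other 4.

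One of the 2 loci of 5 regions was on chromosome 7 (35928955 to 35946726), and its white regions stood higher in their list than its brown ones in theirs. From low to high coordinate it held an eWAT region (score 4.18, percentile 78.8), a BAT region (score 2.88, percentile 33.8), 2 eWAT regions (scores 5.23 and 5.92, percentiles 88.1 and 91.8) and a BAT region (score 2.20, percentile 6.14). Its 3 eWAT regions were all above percentile 75 and its 2 BAT regions both under 50. A further pair lay 26.4 kb beyond it (35973143 to 35976040).

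The other locus of 5, on chromosome 4 (57842184 to 57860224), held 3 BAT and 2 eWAT regions. In order these were an eWAT region (score 2.44, percentile 34.2), a BAT region (score 2.82, percentile 31.2), an eWAT region (score 5.57, percentile 90.2) and 2 BAT regions (scores 7.28 and 2.40, percentiles 91.6 and 14.0). Its strongest BAT and eWAT regions were neighbours 2.84 kb apart, at 57855006 to 57855205 and 57852170 to 57852369. This was 1 of 2 pairs in which both regions were above percentile 90.

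The 3 loci of 4 regions had 3 different layouts. On chromosome 12 (32780031 to 32789593) an eWAT region (score 3.83) was followed by 3 BAT regions with scores of 3.85, 7.14 and 11.26, at percentiles 57.6, 91.0 and 98.9. On chromosome 3 (95457656 to 95466559) 2 eWAT regions (scores 5.92 and 2.79) were followed by 2 BAT regions (scores 2.13 and 2.68). The first of those eWAT regions was at percentile 91.8 and the BAT regions were at 3.44 and 26.1. On chromosome 7 (72523709 to 72539549) the lists alternated, with BAT at score 3.91, eWAT at 2.44, BAT at 4.33 and eWAT at 2.79, and the middle 2 are the overlapping regions described above.

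Of the 3 loci of 3 regions drawn, the one on chromosome 10 (67537815 to 67544822) joined an eWAT region of score 2.09 (percentile 15.4) with BAT regions of scores 9.82 and 6.59 (percentiles 97.6 and 88.6). The locus on chromosome 11 (120103574 to 120114253) had a BAT region (score 4.05) between 2 eWAT regions (scores 4.18 and 3.14). The locus on chromosome 14 (77195323 to 77205482) had 2 eWAT regions (scores 4.88 and 3.83) and then a BAT region (score 3.64). Interleaving was also found at 3 other loci of 3 regions that are not drawn, on chromosomes 14 (65715835 to 65729965), 19 (6288237 to 6302764) and 5 (122141020 to 122160813), which are named because they complete the 7.

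Side-by-side regions scored much like the rest of their lists. Scores of the 196 BAT regions reached from 1.92 to 12.02, and their median was 3.54 (order-statistic 95% interval 3.23 to 3.78), and the whole BAT list had a median of 3.57. Scores of the 188 eWAT regions reached from 1.74 to 12.54, and their median was 2.79 (interval 2.79 to 3.14), and the whole eWAT list had a median of 2.79. The highest 10% of the list, at percentile 90 or above, held 9.18% of the side-by-side BAT regions, against 9.98% of the whole BAT list. For eWAT it held 9.57% of them, against 10.7%. These intervals cover sampling of regions from 1 library.

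The scores lie on even steps within each list, as tag counts multiplied by 1 factor would, which gives a view of the depth behind them. The step was 0.0687 for BAT scores and 0.348 for eWAT scores. The median side-by-side eWAT region stood at 8 steps. If a step is a tag, its exact Poisson 95% interval is 3.45 to 15.8 tags, and 109 of the 188 eWAT regions (58.0%) rest on fewer than 10, against 63.1% of the whole eWAT list. The weakest BAT region stood at 28 steps, with an interval of 18.6 to 40.5. Total tags per library are unknown, because the scale of the score is not given. The median side-by-side BAT region stood at 51.5 steps, far above the 8 of eWAT. How this imbalance bears on which regions were named specific to a tissue was not tested. Its effect on counts of BAT against eWAT regions was not tested either.

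The strongest regions were side by side with the other list at shares near or under those of the whole lists, which were 5.51% for BAT and 3.99% for eWAT. Of the 500 highest-scoring regions, 24 BAT regions (4.8%) and 18 eWAT regions (3.6%) were. Of the 100 highest-scoring regions, 5 BAT regions (5%) and 2 eWAT regions (2%) were. These counts are small and the differences were not tested. The strongest BAT region among them, on chromosome 3 (116656357 to 116656556), scored 12.02, which is 175 steps (Poisson interval 150 to 203). It lay 10.5 kb from an eWAT region (116645843 to 116646042) of score 5.92 and percentile 91.8. This was the other pair with both regions above percentile 90. The BAT region of score 11.81 on chromosome 11 (117052946 to 117053145) had an eWAT neighbour of score 2.09. That of score 11.26 on chromosome 12 (32789394 to 32789593) and that of score 9.82 on chromosome 10 (67542902 to 67543101) belong to the loci described above. The fifth, of score 9.61 on chromosome 13 (115884846 to 115885045), had an eWAT neighbour of score 3.14 at 12.1 kb. The strongest eWAT region, on chromosome 6 (87823177 to 87823376), scored 12.54, which is 36 steps (Poisson interval 25.2 to 49.8). It lay 2.47 kb from a BAT region of score 5.01 (percentile 76.6). The second, on chromosome 1 (161965862 to 161966061), had a score of 10.10 and a BAT region of score 6.32 at 8.91 kb. The regions in this paragraph were picked for their scores.

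The strength of a brown region said little about the strength of the white region beside it. Each BAT region was paired with its nearest eWAT region where each was the nearest of the other, which gave 177 pairs. Both regions were at percentile 50 or above in 41 pairs and both under 50 in 45. The BAT region alone was at 50 or above in 47 pairs and the eWAT region alone in 44. In this split, eWAT regions at the median score of their list, 2.79 (percentile 48.1), count as under 50. Across the 177 pairs Spearman's rho between the BAT and the eWAT score was 0.033, given as a description, since all points come from the same 2 libraries. Pairs of nearest neighbours from a single list, 390 of BAT and 433 of eWAT regions, had values of 0.026 and 0.128. The distance between the regions of a mixed pair had a rho of -0.037 with the BAT score and 0.013 with the eWAT score.

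**Figure D4:**
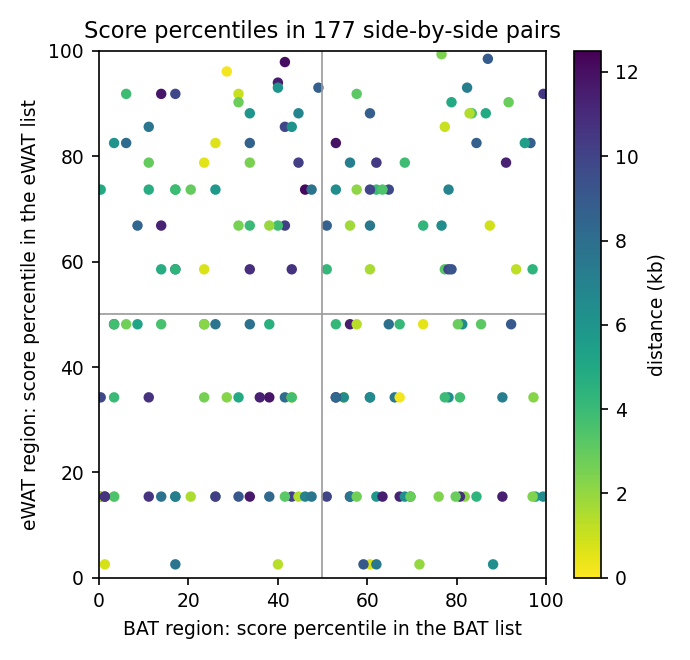
Score percentile of the BAT region in the BAT list (x axis, %) against that of the eWAT region in the eWAT list (y axis, %) for 177 nearest pairs, coloured by the distance between their midpoints (kb). The grey lines at 50 divide the pairs into groups of 41 (both at 50 or above), 45 (both under 50), 47 (BAT at 50 or above) and 44 (eWAT at 50 or above); the eWAT points lie on rows because eWAT scores take few values.

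In some pairs both regions stood high in their own lists. Both regions were at percentile 75 or above in 14 of the 177 pairs. Of all side-by-side regions, 24.5% of BAT and 26.1% of eWAT regions were that high, against 25.3% and 23.2% of the whole lists. The 14 pairs were not compared with the number that unrelated scores would give. Besides the pairs on chromosomes 3, 4 and 1 (161965862 to 161974970) given above, the 10 highest by their weaker region included a second pair on chromosome 1, with BAT at 74046729 to 74046928 (score 6.25) and eWAT at 74051694 to 74051893 (score 5.23). They included 2 pairs on chromosome 2. One had BAT at 44808343 to 44808542 (score 5.84) and eWAT at 44811859 to 44812058 (score 5.23). The other had BAT at 163877455 to 163877654 (score 5.77) and eWAT 1.45 kb away at 163876008 to 163876207 (score 5.23), the closest of the 10. The eWAT region had the same score, at percentile 88.1, in these 3 pairs. Of the remaining 4, chromosome 16 held BAT at 34972691 to 34972890 (score 8.58) and eWAT at 34978226 to 34978425 (score 4.53). Chromosome 14 held BAT at 79656581 to 79656780 (score 9.13) and eWAT at 79647808 to 79648007 (score 4.53). Chromosome 11 held BAT at 68010785 to 68010984 (score 5.97) and eWAT at 68019486 to 68019685 (score 4.53). In these 3 pairs the eWAT region was at percentile 82.5 and the BAT regions ranged from 84.4 to 96.5. An eWAT score of 4.53 is 13 steps, with a Poisson interval of 6.92 to 22.2 tags if a step is a tag. The last was the second pair on chromosome 3, with BAT at 87665879 to 87666078 (score 5.70) and eWAT at 87658726 to 87658925 (score 6.27). In these 10 pairs the regions were 1.45 to 10.5 kb apart.

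Unequal pairs were found in both directions, and their number was not compared with what unrelated scores would give. The percentiles differed by over 50 in 43 of the 177 pairs, with the BAT region higher in 20 and the eWAT region higher in 23, and by at most 10 in 31. The widest gap with BAT higher was on chromosome 5, where a BAT region (136433189 to 136433388, score 6.52, percentile 88.1) lay 6.28 kb from an eWAT region (136426905 to 136427104, score 1.74, percentile 2.56). The next 4, on chromosomes 11, 10, 3 and 18, had BAT scores of 11.81, 9.82, 9.48 and 6.94 beside eWAT scores of 2.09 each. An eWAT score of 2.09 is 6 steps, with a Poisson interval of 2.20 to 13.1 tags if a step is a tag. The widest gap with eWAT higher was at the locus of 5 on chromosome 7, where the eWAT region of score 5.92 lay 3.89 kb from the BAT region of score 2.20. The others were on chromosome 8 (BAT 2.13 and eWAT 4.53), chromosome 16 (2.40 and 5.92), chromosome 5 (2.20 and 4.53) and chromosome 11 (2.47 and 5.92). The pair on chromosome 5 with eWAT higher (BAT at 136708514 to 136708713) lay on the same chromosome as the one with BAT higher.

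Brown regions with another brown region near scored higher than those without, whether or not a white region was near as well. Of the side-by-side BAT regions, 40 also had another BAT region within 12.5 kb (20.4%, exact interval 15.0 to 26.7%), and 24.1% of the other BAT regions did. These 40 had a median score of 3.91, and 22.5% of them were at percentile 90 or above. The 156 BAT regions with an eWAT neighbour alone had a median score of 3.4 and 5.77% at percentile 90 or above. The 810 with a BAT neighbour alone had a median of 3.71 and 15.4%, and the 2551 with neither had 3.43 and 8.31%. Of the side-by-side eWAT regions, 24 had another eWAT region within 12.5 kb (12.8%, interval 8.35 to 18.4%), and 20.1% of the other eWAT regions did. Their median score was 3.48, against 2.79 for the 164 with a BAT neighbour alone, 3.14 for the 911 with an eWAT neighbour alone and 2.79 for the 3612 with neither. Of the 24, 12.5% were at percentile 90 or above, against 9.15% of those with a BAT neighbour alone. The shares were 14.5% with an eWAT neighbour alone and 9.75% with neither. These differences were not tested, because the regions come from 1 library per tissue.

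Side-by-side loci were found on every autosome and on chromosome X. Chromosome 11 held the most, 15 loci, and chromosomes 2 and 7 held 13 each. Side-by-side regions were 5.91% of all regions on chromosome 11, 3.93% on chromosome 2 and 6.63% on chromosome 7. Chromosome 2 had the most regions of any chromosome, 662. Its shares, 4.17% for BAT and 3.71% for eWAT, were under the 5.51% and 3.99% of the whole lists. Relative to the regions present, the share of side-by-side regions was highest on chromosome 13 for BAT (12 of 146 regions, 8.22%) and on chromosome 14 for eWAT (13 of 194 regions, 6.70%). Among the autosomes and X it was lowest in both lists on chromosome 9, with 3 of 178 BAT regions (1.69%) and 3 of 253 eWAT regions (1.19%). Chromosome X held 1 locus, with 2 of its 114 regions (1.75%). On chromosome 9 the exact interval was 0.349 to 4.85% for BAT and 0.245 to 3.43% for eWAT, on chromosome 13 it was 4.32 to 13.9% for BAT, and on chromosome 14 it was 3.62 to 11.2% for eWAT. These chromosomes were picked as the extremes of 20, and their differences were not tested.

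**Figure D5:**
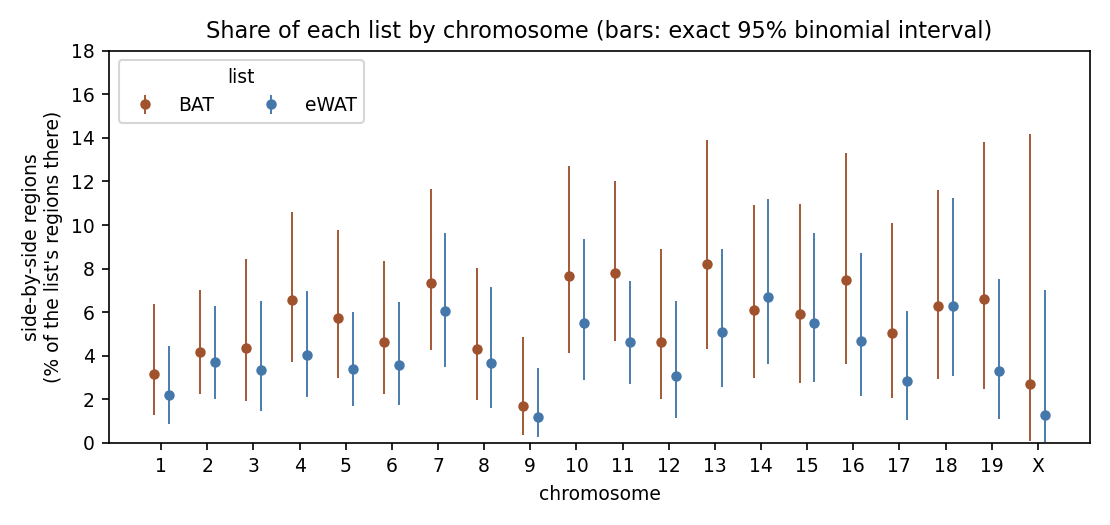
Side-by-side regions as a share (%) of each list's regions on each chromosome (y axis) by chromosome (x axis), with BAT in brown and eWAT in blue and bars for the exact 95% binomial interval, which covers counting error alone. Chromosome 9 has 1.69% of its BAT and 1.19% of its eWAT regions side by side, and most intervals overlap.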

How the data were processed

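The authors deposited 1 list of regions per tissue, giving for each region its position, name, score and strand (always plus). Not given in the sources used here are the score's unit, the use of input DNA and the rule for calling a region tissue-specific. Bowtie and HOMER, and the builds mm8 and mm9, are named per the submitters' processing notes, without versions or roles. Score steps were fitted by least squares, and 99.9% of BAT and 99.8% of eWAT scores were whole multiples within 0.005. Distances are between midpoints. Everything was computed with Python 3.11.15, pandas 2.3.3 and SciPy 1.17.1, and the neighbour search was tested on simulated data.

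The side-by-side regions and the lists were chosen with earlier results of these data known. Pairs and loci were named by a rule: the 8 loci with the most regions, the 8 nearest pairs, the 10 pairs whose weaker region had the highest percentile, and the 5 pairs with the widest gap in percentile in each direction. Genes, motifs, repeats and region sequences had been planned and were not run: the mouse gene table here is of GRCm38, another build, and no genome sequence was used. No count model or test between tissues was possible with 1 library each.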

Additional observations from a re-analysis of the deposited data

How the results depend on the processing

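The share of side-by-side regions follows the distance that defines them. It was 2.42% of BAT and 1.78% of eWAT regions at 5 kb, 11.0% and 8.00% at 25 kb, and 21.1% and 15.5% at 50 kb, and the median distance from a BAT to the nearest eWAT region became 2.86, 12.7 and 23.9 kb. With each list held to its median score or above, 1779 BAT and 2720 eWAT regions were left, and the shares were 3.26% and 2.10%. The median scores were 5.01 for BAT and 3.83 for eWAT, as the limit itself raises them. A shorter list offers fewer neighbours, and how far that lowered the shares was not tested. With at least 10 score steps, which removes eWAT regions alone and leaves 1738 of them, 2.36% of BAT regions had an eWAT neighbour. Of the eWAT regions left, 79 (4.55%) had a BAT neighbour, a share within the interval of the main 3.99%. The median eWAT score was then 4.53. The number of loci fell from 175 to 75 with this setting, and to 54 with the median score or above. Leaving out the eWAT loci with the highest scores removed no side-by-side region, and merging regions of 1 list within 1 kb moved no value beyond its interval. Joining within 5 kb leaves 283 groups, many of them single regions, with 1 of 10 groups of 3 or more interleaved, and joining within 25 kb gives 173 loci with 9 of 27 interleaved. No paired analysis was possible because there is a single library for BAT and a single one for eWAT, and no library could be left out.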
